A study of Mus musculus with 8 samples.

Results

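The genes described here are 10 that mesenchymal cells are known for: Col1a1, Col1a2 and Col3a1, Fn1, Postn and Sparc, Thy1, Pdgfra and Pdgfrb, and Vim. They were chosen by name out of 26212 annotated genes with a start. H3K4me3, the trimethylated form of lysine 4 of histone H3, was counted at their starts in 4 kinds of cells, to ask how much of a mesenchymal chromatin pattern each culture carried.

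The 4 cultures were wild-type (wt) mouse embryonic stem cells (mESCs) of the line TC-1, menin-null mESCs of the line 3.2N, in which Men1, the gene for menin, is knocked out, and the pancreatic islet-like endocrine cells (PILECs) grown in vitro from each line. All share the genetic background 129S6/SvEvTac, and each genotype rests on 1 cell line. The mESCs had been kept on irradiated fibroblast feeder cells and were then freed of them by repeated short platings before growth on gelatin, and how many feeder cells were left was not measured. The PILECs came from embryoid bodies plated, expanded and then held in nicotinamide, with no sorting step given. From each culture 1 H3K4me3 ChIP-Seq library was made beside 1 of its input chromatin. The 8 libraries hold no replicates, and no comparison below carries a test of the conditions.

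Fibroblasts and other mesenchymal cells build the extracellular matrix. They secrete fibrillar collagens and the glycoproteins that organize them, they respond to platelet-derived growth factor (PDGF) through its receptors, and they hold vimentin as their main intermediate filament. H3K4me3 is found at the starts of active genes, and at starts rich in CpG, the dinucleotide that DNA methylation acts on, it is often present even where the gene is little transcribed, so its level is not a measure of RNA. Embryonic stem cells are known to carry it at many silent developmental genes with CpG-rich starts.

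The starts of the members differ in their sequence, and the stretches shown here were chosen because they span this range: Col3a1, Postn and Sparc had the lowest CpG content around the counted start, and Vim was among the highest. RefSeq (GRCm38.p6) gave promoters for 6 of the 10 genes, 7 promoters in all, and gave none for Col1a1, Fn1, Thy1 and Pdgfrb. Each line holds the 250 bases before a start, 5′ to 3′ along the gene, with every CpG in capitals. The first 4 are from RefSeq: Col3a1 at chr1:45311288-45311537 (plus strand), Postn at chr3:54360857-54361106 (plus strand), Sparc at chr11:55420081-55420330 (minus strand) and Pdgfra at chr5:75152001-75152250 (plus strand). The RefSeq promoter of Vim lies inside an annotated exon of the mm9 gene models, so the Vim line is instead the 250 bases before the 5′ end of the gene in mm9, at chr2:13495304-13495553 (plus strand).
Col3a1: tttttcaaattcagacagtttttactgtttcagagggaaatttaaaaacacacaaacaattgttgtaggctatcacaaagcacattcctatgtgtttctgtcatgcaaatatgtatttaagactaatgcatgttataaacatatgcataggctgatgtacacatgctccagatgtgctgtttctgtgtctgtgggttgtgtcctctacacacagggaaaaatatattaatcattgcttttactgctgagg
Postn: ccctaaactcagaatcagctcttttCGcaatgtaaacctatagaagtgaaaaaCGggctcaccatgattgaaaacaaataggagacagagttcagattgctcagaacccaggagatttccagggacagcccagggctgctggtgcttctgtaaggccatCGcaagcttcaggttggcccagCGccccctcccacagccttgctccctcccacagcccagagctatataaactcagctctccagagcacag
Sparc: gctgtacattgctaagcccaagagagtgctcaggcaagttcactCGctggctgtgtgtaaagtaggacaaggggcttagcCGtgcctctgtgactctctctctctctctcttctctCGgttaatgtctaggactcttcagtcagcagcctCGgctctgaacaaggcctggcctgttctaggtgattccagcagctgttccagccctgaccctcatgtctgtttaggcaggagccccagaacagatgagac
Pdgfra: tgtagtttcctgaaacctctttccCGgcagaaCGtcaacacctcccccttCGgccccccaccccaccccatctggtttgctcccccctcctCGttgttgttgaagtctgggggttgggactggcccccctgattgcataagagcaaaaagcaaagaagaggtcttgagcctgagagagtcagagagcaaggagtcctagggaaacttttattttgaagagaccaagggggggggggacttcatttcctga
Vim: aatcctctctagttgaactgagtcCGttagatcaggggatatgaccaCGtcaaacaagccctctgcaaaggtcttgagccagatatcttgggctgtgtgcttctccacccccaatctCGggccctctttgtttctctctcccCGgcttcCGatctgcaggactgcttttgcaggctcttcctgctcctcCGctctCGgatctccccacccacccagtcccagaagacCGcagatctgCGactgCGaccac

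The Col3a1 stretch held 0 CpG sites, against a median of 6 in 32851 RefSeq promoters cut to the same 250 bases. The Postn, Sparc and Pdgfra stretches held 4 CpG sites each and the Vim stretch held 10. Each of the RefSeq stretches was found once in mm9, and the start it leads to lay 0 bp from the start counted for Col3a1, 2 bp for Postn, 182 bp for Sparc and 3915 bp for Pdgfra. The letters TATAAA, searched on both strands, were present in the Col3a1 and Postn stretches and absent from those shown for Sparc, Pdgfra and Vim, and 12.4% of all promoters held them. The RefSeq promoter of Vim, which is not printed and leads to a start 11 bp from the counted one, did hold them. CCAAT, on either strand, was in the Vim stretch alone of these 5 and in 33.8% of all promoters. GGGCGG, on either strand, was in none of these 5 stretches and in 32.7% of all promoters. The RefSeq promoter of Col1a2, which is not printed and had 11 CpG sites, the most of the 7, held the last 2 of these motifs and not the first. The other RefSeq promoter of Postn, leading to a start 1842 bp from the counted one, held none of the 3. A match of letters is a description and not a bound site.

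The H3K4me3 counts rest on 2432377 tags from wt and 3517028 from menin-null mESCs, and 18773635 from wt and 17682677 from menin-null PILECs, and the inputs held 4248298, 3744616, 19016697 and 18120807, in the same order. A tag is a uniquely placed 36-bp read. Tags within 1 kb of a start were divided by the total of the library and multiplied by 1000000 (RPM), without correction for length since every window is the same size. Of all H3K4me3 tags, 40.1% to 51.4% lay within 1 kb of a start. Of the input tags, 7.50% and 6.97% did so in wt and menin-null mESCs against 4.65% and 4.78% in wt and menin-null PILECs, so the inputs differ by stage in this respect. Over exons 3 to 8 of Men1 the inputs had 17 tags in wt and 0 in menin-null mESCs, and 22 in wt and 0 in menin-null PILECs. A count of 0 allows up to 3 tags, and intervals below are 95% limits from the exact conditional binomial (Clopper-Pearson) method for a ratio. Intervals and this limit cover counting error only.

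Where a gene had several annotated starts, the one with the highest RPM summed over the 4 H3K4me3 libraries was used. For 7 members it lies in exon 1 of the first-numbered transcript model. The start used for Col1a1 (chromosome 11, 94799000 in mm9) lies in intron 1 of the transcript that begins at the 5′ end, 1462 bp downstream of the 5′ end of the gene, and that of Pdgfra (chromosome 5, 75552191) lies 3875 bp downstream of its 5′ end. Fn1 begins at 71699746 on chromosome 1, minus strand, within 2 kb of the start of a gene annotated as Apol7d, so the tags at Fn1 cannot be assigned to one of them. The other members had no start of another gene within 2 kb.

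A gene was called marked where its H3K4me3 RPM was 4-fold or more over the input of the same cells after adding 1 tag to both counts, and the ratio's interval lay above 1. By this rule 4 of the 10 members were marked in wt and 5 in menin-null mESCs, and 9 in wt and 7 in menin-null PILECs. Of all genes, 51.1%, 52.0%, 53.0% and 52.3% were marked in the same order. The counts of members depended on the fold over input. At 2-fold 7 were marked in wt and 6 in menin-null mESCs, and 9 in wt and 10 in menin-null PILECs, against 55.7%, 55.9%, 55.9% and 55.2% of all genes. At 8-fold they were 1, 4, 4 and 5, against 39.0%, 42.9%, 49.5% and 48.3%. At 4-fold, Fn1, Thy1 and Vim were marked in all 4 libraries. Pdgfra was also marked in wt mESCs, and Col1a1 and Col1a2 in menin-null mESCs. In wt PILECs the only member not marked was Postn, and in menin-null PILECs these were Postn, Col1a1 and Col1a2.

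Several of these marks depended on the way of counting. With every library thinned in 1 random draw to the size of the smallest H3K4me3 library, wt PILECs lost the marks of Col3a1 and Thy1 and gained that of Postn, and menin-null PILECs lost that of Pdgfrb. In mESCs the same thinning added Sparc in wt and removed Col1a2 in menin-null cells. With tags within 2 kb, Col1a2, Thy1 and Pdgfrb were not marked in wt PILECs, Col3a1 was not in menin-null PILECs, Pdgfra was not in wt mESCs, and Col1a1 and Col1a2 were not in menin-null mESCs. With tags within 500 bp Col3a1 was not marked in wt PILECs, while Col1a2 was in wt and Pdgfra in menin-null mESCs. With 5 tags added the marks of Thy1 in wt PILECs and of Col1a2 in menin-null mESCs were lost. At the 5′ end of the gene Col1a1 and Col1a2 lost theirs in wt PILECs and in menin-null mESCs. In wt mESCs Col1a2 then replaced Pdgfra. Fn1 and Vim kept their marks in all 4 libraries under each of these changes.

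The summed level of the 10 members was 112.6 RPM in wt and 119.1 in menin-null mESCs, and 166.4 in wt and 153.8 in menin-null PILECs. Their inputs summed to 17.7, 14.4, 11.1 and 10.9 RPM. A single gene gave 37.7% to 39.4% of the sum in each library, Fn1 in mESCs and Vim in PILECs. In bulk chromatin, fewer cells that carry the mark and less of the mark per cell cannot be told apart.

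**Figure D1:**
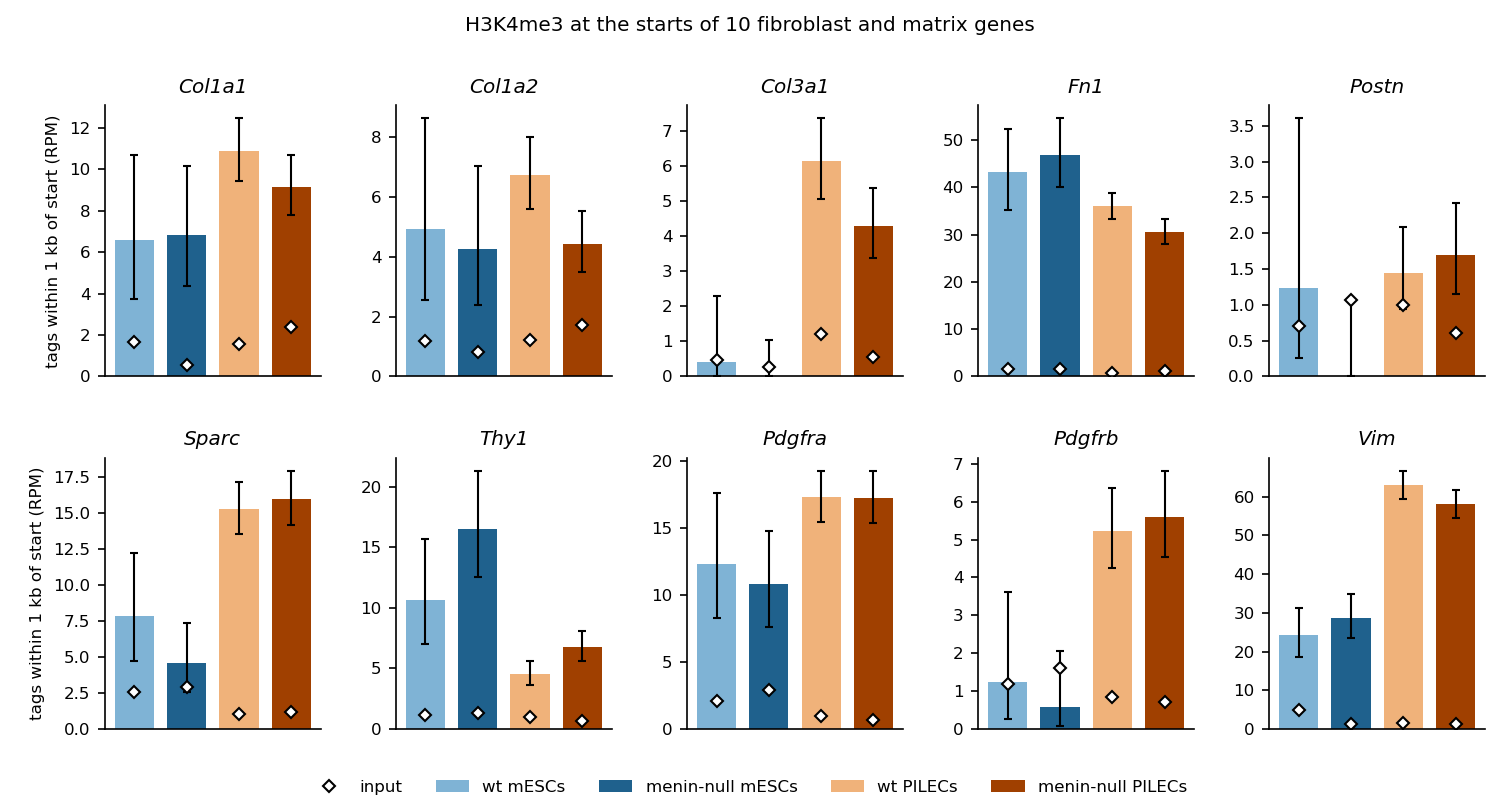
H3K4me3 tags within 1 kb of the start of each member, in RPM on an axis from 0 that differs between panels, with 1 bar per library, 95% Poisson intervals of the counts, and open diamonds for the input of the same cells. Col3a1 and Pdgfrb stand at or near input in both mESC libraries and above it in both PILEC libraries, Vim is higher in both PILEC libraries, and Thy1 is lower in both.

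The fibrillar collagens make the tensile fibres of connective tissue. Col3a1, the chain of type III collagen, had 1 tag in wt and 0 in menin-null mESCs, and 115 in wt and 76 in menin-null PILECs. These are 0.41, 0, 6.13 and 4.30 RPM, and the mESC values do not exceed their inputs of 2 tags and 1 tag. The PILEC levels were 5.06-fold over input in wt cells and 7.79-fold in menin-null cells. By the rule at full depth Col3a1 was marked in PILECs of both genotypes and not in mESCs, and the mark in wt PILECs was lost at matched depth. In mESCs 3 tags would be 1.23 RPM in the wt and 0.85 RPM in the menin-null library.

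Col1a1 and Col1a2 encode the chains of type I collagen, the main collagen of fibroblasts and bone. Col1a1 had 16 tags in wt and 24 in menin-null mESCs, and 204 in wt and 162 in menin-null PILECs, or 6.58, 6.82, 10.9 and 9.16 RPM. Col1a2 had 12, 15, 126 and 78 tags, or 4.93, 4.26, 6.71 and 4.41 RPM. Unlike Col3a1, both had tags above input in mESCs, and the order of the 4 libraries held no neighbours whose ratio left out 1. The PILEC libraries are not neighbours in the order of Col1a2, and the interval of their ratio did leave out 1. In menin-null PILECs the ratio to input was 3.86 for Col1a1 and 2.58 for Col1a2, below the limit for a marked gene. The input itself was highest there, with 43 tags at Col1a1 and 31 at Col1a2, against 30 and 23 in wt PILECs.

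The matrix glycoproteins tie cells to collagen and shape the fibres. Fn1, fibronectin, which binds integrins on the cell surface, had 105 tags in wt and 165 in menin-null mESCs, and 676 in wt and 542 in menin-null PILECs. At 43.2, 46.9, 36.01 and 30.65 RPM it was the member with the highest level in both mESC libraries. Its ratio to input ran from 25.2 to 45.7 over the 4 libraries.

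Sparc, a collagen-binding protein of the matrix, had 19 tags in wt and 16 in menin-null mESCs, and 286 in wt and 282 in menin-null PILECs. The levels were 7.81, 4.55, 15.2 and 15.9 RPM, and the PILEC levels were 14.5-fold and 13.1-fold over input. In mESCs they were 3.02-fold and 1.55-fold over input. Postn, periostin, a matrix protein of periosteum and of remodelling tissue, had 3, 0, 27 and 30 tags, or 1.23, 0, 1.44 and 1.70 RPM. At full depth and 4-fold it was the only member marked in none of the 4 libraries. Its mark in wt PILECs at matched depth rests on a random part of the same tags. The full-depth interval of its ratio to input there, 0.77 to 2.74, leaves out 4. Its levels at full depth had ratios to input of 1.44 in wt and 2.79 in menin-null PILECs.

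Thy1, the surface glycoprotein CD90 of fibroblasts, T cells and neurons, had 26 tags in wt and 58 in menin-null mESCs, and 85 in wt and 120 in menin-null PILECs. The levels were 10.7, 16.5, 4.53 and 6.79 RPM, so both mESC values stood above both PILEC values. The interval of the ratio of wt mESCs to menin-null PILECs held 1. Of the 2 PDGF receptors, Pdgfra marks mesoderm and early mesenchyme, and Pdgfrb marks pericytes and smooth muscle precursors. Pdgfra had 30, 38, 325 and 305 tags, or 12.3, 10.8, 17.3 and 17.2 RPM, and was 5.82-fold over input in wt mESCs and 18.3-fold in wt PILECs. Pdgfrb had 3, 2, 98 and 99 tags, or 1.23, 0.57, 5.22 and 5.599 RPM, and like Col3a1 it did not exceed input by more than 1.05-fold in mESCs.

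Vim, the intermediate filament protein vimentin, had 59 tags in wt and 101 in menin-null mESCs, and 1182 in wt and 1025 in menin-null PILECs. At 63.0 and 58.0 RPM in PILECs it was the highest of the members there, above 96.9% of all genes in wt and 95.6% in menin-null PILECs. In mESCs its 24.3 and 28.7 RPM exceeded 66.1% and 66.9% of genes. Its ratio to input was 4.91 (2.94 to 8.50) in wt mESCs, where the input held 21 tags. In menin-null mESCs it was 21.5 (8.92 to 67.7), with 5 input tags. At 8-fold over input Vim was not marked in wt mESCs. The other members stood lower among all genes in wt PILECs, from 42.8% for Postn to 77.3% for Fn1. The median level of all marked genes was 32.6 RPM in wt PILECs, and only Vim and Fn1 were above it.

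A gene was called higher or lower between 2 libraries where the RPM ratio with 1 tag added to each count was 2-fold or more and the interval of the ratio left out 1. In wt PILECs over wt mESCs 3 members were called higher, Col3a1, Pdgfrb and Vim, and 1 was called lower, Thy1. Of all genes 4.10% were called higher and 10.8% lower, and after division by the ratio of the inputs within 50 kb these shares were 9.50% and 8.02%. The log2 ratio was 3.90 (95% interval 1.39 to 9.21) for Col3a1, whose wt mESC count is 1 tag, 2.08 (0.49 to 4.38) for Pdgfrb, 1.38 (1.00 to 1.78) for Vim and -1.24 (-1.89 to -0.55) for Thy1. Sparc, at 0.96 (0.29 to 1.72), had an interval above 0 and stayed under the fold limit. It was called higher after division by the input ratio within 50 kb, at 1.08 (0.41 to 1.83), and after subtraction of the input within 1 kb, at 1.44. The interval after division leaves out the counting error of the input. The intervals of the 5 others held 0, from -0.26 (-0.56 to 0.05) for Fn1 to 0.72 (-0.01 to 1.56) for Col1a1. The median log2 ratio of the 10 members was 0.61, against -0.22 for the 24352 genes with a ratio.

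In menin-null PILECs over menin-null mESCs 5 members were called higher, Col3a1, Postn, Sparc, Pdgfrb and Vim, and Thy1 was again called lower. The shares of all genes were 3.30% higher and 15.3% lower, and 6.26% and 10.3% when libraries were scaled by their tags within 1 kb of starts, under which Thy1, at -0.92, was not called. Col3a1 and Postn had 0 tags in menin-null mESCs, and their levels were at least 5.04-fold and at least 1.99-fold higher in menin-null PILECs, against a limit of 3 tags per library. The lower ends of their 95% intervals, which also cover the error of the PILEC counts, were 3.999-fold and 1.52-fold. For Postn both lie under 2-fold, so its call rests on the 1 tag added to each count. The log2 ratio was 1.81 (1.08 to 2.64) for Sparc, 3.30 (1.41 to 6.37) for Pdgfrb, 1.01 (0.72 to 1.32) for Vim and -1.28 (-1.74 to -0.80) for Thy1. Fn1, at -0.61 (-0.87 to -0.35), and Pdgfra, at 0.67 (0.19 to 1.201), had intervals on 1 side of 0 and stayed under the fold limit. With scaling by tags at starts the interval of Fn1 held 0. Pdgfra was called higher with scaling by tags at starts, at 1.03 (0.54 to 1.56), and after subtraction of the input within 1 kb, where Postn was not called. Col1a1, at 0.42, and Col1a2, at 0.05, had intervals that held 0. At the 5′ end of the gene, 1462 bp before the start used, Col1a1 counted 110 tags in menin-null PILECs against 10 in the mESCs, and was called higher with a log2 ratio of 1.13 (0.20 to 2.23). The members' median was 0.83, counting Col3a1 and Postn at their bounds, against -0.33 for 24444 genes.

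The 2 stage comparisons share no library, and Col3a1, Pdgfrb and Vim were called higher and Thy1 lower in both. The call of Vim in the menin-null pair rests on a 2.02-fold difference at the limit of the rule, and was lost under several other settings, down to a log2 ratio of 0.79 with each position and strand counted once. The call of Pdgfrb in the wt pair, from 3 tags in wt mESCs, was lost with tags within 500 bp, at a log2 ratio of 1.55, and with 5 tags added. The input within 50 kb of the start also differed by stage at most members. It was lower in PILECs at Thy1, with log2 ratios of -0.55 in the wt pair and -0.52 in the menin-null pair, at Pdgfrb, with -0.63 and -0.71, at Pdgfra, with -0.40 and -0.25, and at Col1a1, with -0.32 and -0.21. At Sparc it was lower in the menin-null pair, with -0.20. It was higher at Col3a1, with 0.54 and 0.45, and at Postn in the wt pair, with 0.38. At Col1a2, Fn1 and Vim its intervals held 0 in both pairs. Divided by these input ratios, Thy1 was at -0.68 and -0.76 and was called lower in neither pair, while Col3a1 and Pdgfrb kept their calls.

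**Figure D2:**
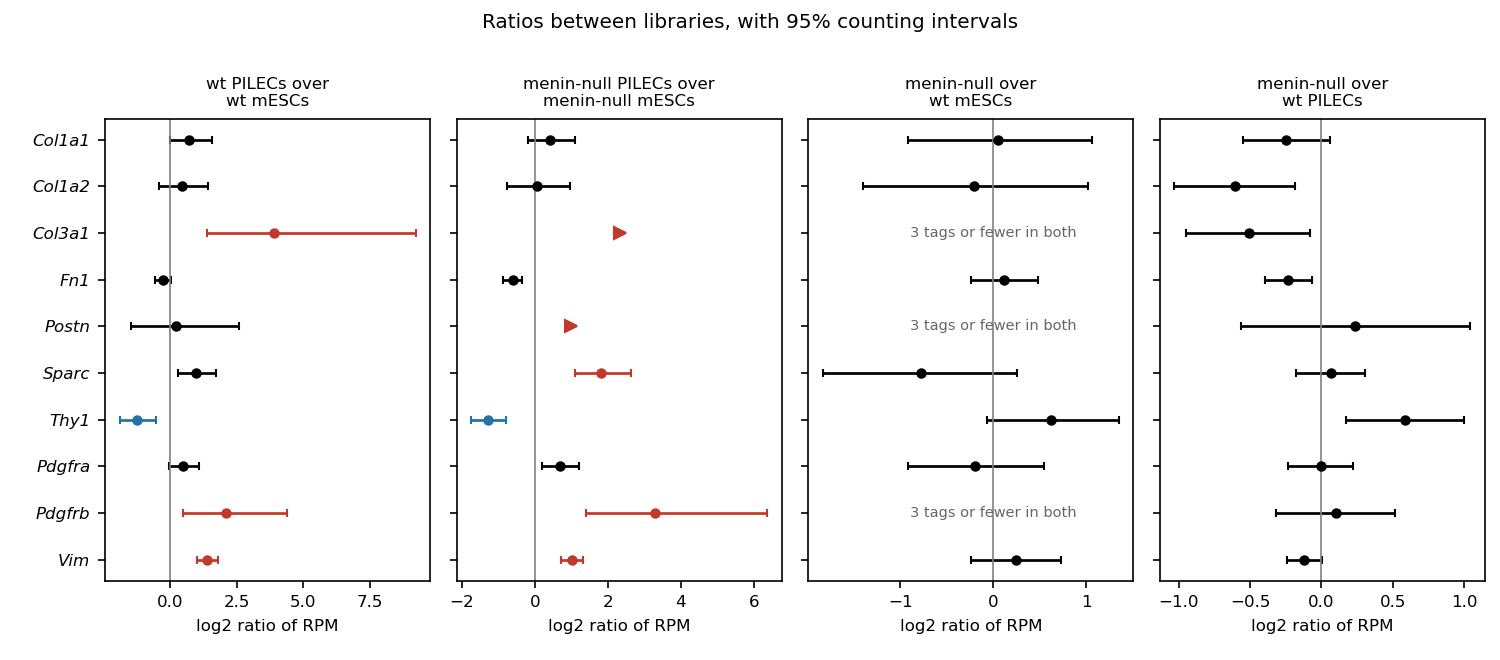
Log2 ratios of RPM within 1 kb of the start for the 10 members in the 4 comparisons, each panel with its own axis. Points are ratios with their 95% intervals, triangles are lower bounds where the second library had 0 tags, red marks genes called higher and blue genes called lower. Calls are seen in the 2 stage comparisons and, at full depth and 2-fold, none in the 2 comparisons of genotype.

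Between genotypes no member was called at full depth by the 2-fold rule with tags within 1 kb. In menin-null over wt mESCs, where 0.500% of genes were called higher and 0.748% lower (0.11% and 1.82% with scaling by tags at starts), Col3a1, Postn and Pdgfrb had 3 tags or fewer in both libraries and no ratio was taken. The intervals of the 7 others held 0, from -0.78 (-1.84 to 0.26) for Sparc to 0.63 (-0.07 to 1.35) for Thy1. With these counts a 2-fold gain in menin-null cells could not have been told from none at Col1a1, where the interval ran from -0.92 to 1.06. A 2-fold loss there lay just outside the interval. Postn was called lower with tags within 2 kb, beside 1.14% of all genes. The members' median was 0.05, against 0.21 for 17766 genes.

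In menin-null over wt PILECs, 1.21% of genes were called higher and 1.22% lower. The counts there were larger, and 4 members had intervals on 1 side of 0. Col1a2 was at -0.61 (-1.03 to -0.19), Col3a1 at -0.51 (-0.95 to -0.08) and Fn1 at -0.23 (-0.40 to -0.07), and Thy1 was at 0.58 (0.17 to 1.00). Tags within 1 kb of starts made up 42.7% of the wt and 40.1% of the menin-null PILEC library. With scaling by these tags the intervals of Col3a1 and Fn1 held 0, and those of Col1a2 and Thy1 did not. By interval alone 18.5% of all genes lay below 0 and 4.70% above it, so 3 and 1 of 10 members are to be read against these shares. In 1 random draw that thinned all libraries to the size of the smallest H3K4me3 library, Thy1 was called higher, at 1.295 (0.24 to 2.46). Col1a2, at -1.93 (-3.70 to -0.46), and Col3a1, at -1.50 (-3.13 to -0.09), were called lower, where 1.305% of all genes were called in either direction. The draw keeps a part of the same tags, and each of these ratios lies outside its full-depth interval. These calls therefore add no evidence of a difference to the full-depth counts. Col1a2 was also called lower at 1.5-fold, beside 5.17% of all genes in either direction, and after subtraction of the input within 1 kb, beside 2.08%. The intervals of the 6 others held 0, among them Sparc at 0.07 (-0.18 to 0.31), Pdgfra at -0.01 (-0.24 to 0.22) and Vim at -0.12 (-0.24 to 0.00). The members' median of -0.06 stood beside -0.07 for 24872 genes. The input within 50 kb of each member did not differ between genotypes beyond its interval, with log2 ratios from -0.10 at Sparc to 0.10 at Vim in PILECs. Within 1 kb, the Col3a1 input was 23 tags in wt and 10 in menin-null PILECs. Its ratio to input, 5.06 in wt and 7.79 in menin-null PILECs, thus had the opposite direction. The ratios to input kept the direction at Col1a2 (5.55 and 2.58), Fn1 (45.7 and 25.2) and Thy1 (4.53 and 10.2).

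Beyond 1 kb the members differed in shape. Tags were also counted from 1 to 5 kb on either side of the start. At Vim 13.2% and 12.9% of the tags within 5 kb lay 1 to 5 kb downstream in wt and menin-null mESCs, and 26.2% and 24.4% in wt and menin-null PILECs. The level in this stretch was 4.11, 4.83, 24.1 and 19.5 RPM in the order wt mESCs, menin-null mESCs, wt PILECs, menin-null PILECs, and the log2 ratio of PILECs to mESCs was 2.55 (1.66 to 3.62) in the wt and 2.01 (1.31 to 2.81) in the menin-null pair. The mark at Vim thus covered more of the gene body in PILECs of both genotypes, on top of its higher level at the start.

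Fn1 went the other way. Its downstream stretch had 11.1, 9.67, 4.58 and 2.997 RPM, and the log2 ratios of PILECs to mESCs were -1.28 (-1.92 to -0.60) and -1.69 (-2.34 to -1.02). The share of its tags within 1 kb was 76.1% and 79.7% in mESCs and 86.1% and 88.4% in PILECs.

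Few of the PILEC tags at Col3a1, Sparc and Pdgfrb lay in the kilobase before the start. At Col3a1 2.2% of the tags within 5 kb in wt and 4.2% in menin-null PILECs fell in the kilobase before the start, while 45.4% and 38.5% fell 1 to 5 kb after it. This downstream stretch had 103 tags in wt and 55 in menin-null PILECs, a log2 ratio of -0.82 (-1.32 to -0.33) for menin-null over wt. At Sparc 4.3% and 2.1% of the tags fell in the kilobase before the start, and at Pdgfrb 8.5% and 7.2%. At Postn, with 71 and 70 tags within 5 kb, this kilobase held 12.7% and 11.4%. At Vim the kilobase before the start held 22.2% and 18.2%, and at Fn1 31.2% in both PILEC libraries.

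Pdgfra had a further stretch of tags upstream, between the counted start and the 5′ end of the gene. From 1 to 5 kb upstream it had 17 tags in wt and 36 in menin-null mESCs, and 217 in wt and 307 in menin-null PILECs. These are 6.99, 10.2, 11.6 and 17.4 RPM, and menin-null over wt PILECs had a log2 ratio of 0.59 (0.33 to 0.84), where the counted start itself was at -0.01. Vim had the opposite sign in this respect, with 89 tags in wt and 44 in menin-null PILECs 1 to 5 kb upstream and a log2 ratio of -0.93 (-1.49 to -0.39). Other intervals on 1 side of 0 in this comparison were those of Postn upstream, with 24 and 10 tags and -1.18 (-2.41 to -0.06), of Fn1 downstream, at -0.61 (-1.13 to -0.10), and of Vim downstream, at -0.30 (-0.51 to -0.10). The Postn levels, 1.28 RPM in wt and 0.57 in menin-null PILECs, lay below inputs of 2.42 and 1.43 RPM in the same stretch. In menin-null PILECs Vim upstream, at 2.49 RPM, and Fn1 downstream, at 2.997 RPM, were near inputs of 2.32 RPM each. In all, 1 member of 10 lay above 0 and 2 below it upstream, and 3 lay below it downstream. Of all genes, 3.27% lay above 0 and 6.16% below it upstream, and 8.85% lay below it downstream. These stretches were looked at after the values within 1 kb were known.

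**Figure D3:**
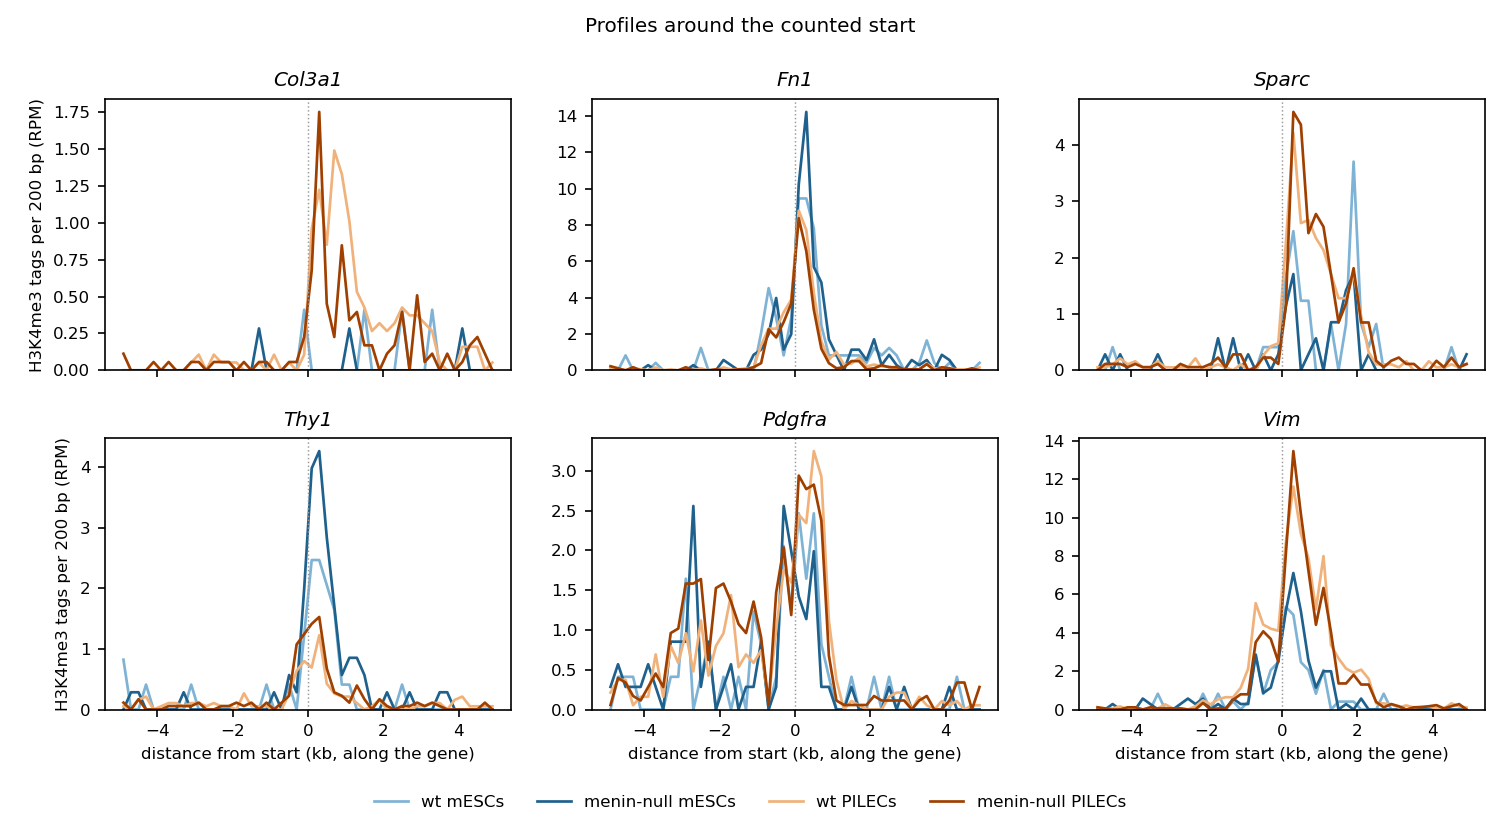
H3K4me3 tags in bins of 200 bp, in RPM on axes that differ between panels, from 5 kb before to 5 kb after the counted start of 6 members, drawn along the gene, with 1 line per library. Col3a1 and Sparc show the mark after the start with little before it, Vim extends further downstream in PILECs, and Pdgfra has tags upstream of the counted start in all 4 libraries.

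The CpG content of the counted window, 1 kb on either side of the start, ran with the level of the mark. The ratio of observed to expected CpG was 0.15 at Col3a1, 0.17 at Postn, 0.19 at Sparc, 0.30 at Pdgfrb, 0.37 at Col1a2, 0.38 at Thy1, 0.46 at Col1a1, 0.55 at Pdgfra, 0.56 at Vim and 0.61 at Fn1, and its median over all genes was 0.46. Across the 10 members, which share a library in each case, Spearman's rho between this ratio and RPM was 0.89 in wt and 0.92 in menin-null mESCs, and 0.72 in wt and 0.84 in menin-null PILECs. Across all 26212 genes it was 0.86, 0.86, 0.82 and 0.81, so a rank relation in this direction is not particular to the members. How far single members lie from the relation of all genes was not tested.

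**Figure D4:**
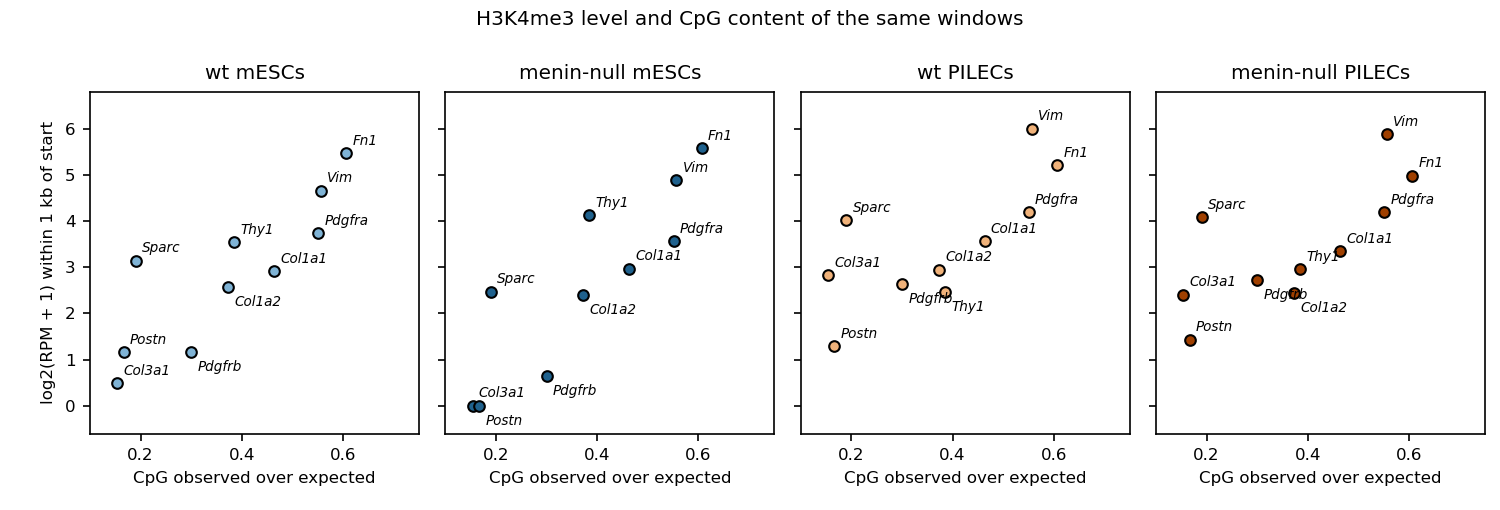
Level of H3K4me3 within 1 kb of the start, as log2(RPM + 1), against the observed over expected CpG of the same window, with 1 panel per library and 1 point per member. Members with more CpG tend to have higher levels in all 4 libraries, and Col3a1 and Pdgfrb move up from mESCs to PILECs while Fn1 and Thy1 do not.

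A list of 61 other genes of the matrix and of mesenchyme was counted in the same way, and all 61 were found in the annotation. Of these, 36 were marked in wt and 38 in menin-null mESCs, and 39 in wt and 42 in menin-null PILECs, beside 51.1%, 52.0%, 53.0% and 52.3% of all genes. In the wt stage pair 9 were called higher and 15 lower, beside 4.10% and 10.8% of all genes, with a median log2 ratio of -0.23 against -0.22 for all genes. In the menin-null stage pair 8 were called higher and 14 lower, beside 3.30% and 15.3% of all genes, with a median of -0.39 against -0.33.

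By group, collagens and the enzymes that process them had 3 of 14 called higher and 1 lower in the wt pair, and 4 and 1 in the menin-null pair. Matrix glycoproteins and proteoglycans had 3 of 14 higher and 0 lower, and then 2 and 1. Matrix proteases and their inhibitors had 0 of 5 higher and 2 lower in each pair. Mesenchymal surface proteins had 2 of 9 higher and 3 lower, and then 1 and 2, and transcription factors had 1 of 10 higher and 4 lower, and then 1 and 3. The PDGF ligands had 0 of 4 higher and 2 lower in each pair. The contractile and cytoskeletal genes had 0 of 5 higher and 3 lower in each pair. Of these 5 genes 1 was marked, in all 4 libraries, so the others called lower carried no mark. The shares of all genes were 4.10% higher and 10.8% lower in the wt pair, and 3.30% and 15.3% in the menin-null pair. A call does not require a mark, and some genes called in each direction were marked in neither library of a pair.

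Of the genes called higher, those with the largest ratios had few or no tags in mESCs. Ddr2, a receptor that collagen itself activates, had 2 tags in wt and 0 in menin-null mESCs, and 140 in wt and 129 in menin-null PILECs. Prrx1, a transcription factor of limb and craniofacial mesenchyme, had 5, 2, 241 and 174 tags, with log2 ratios of 2.64 (1.40 to 4.28) and 4.11 (2.24 to 7.17). Col6a1, a chain of the beaded type VI collagen, had 1, 0, 65 and 86 tags. Fap, a surface protease of activated fibroblasts, had 1, 1, 63 and 29 tags, was marked in no library and was called higher in the wt pair. All 4 were without a mark in mESCs of both genotypes.

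Of the genes called lower with the largest ratios, Eng and Loxl1 were marked in mESCs of both genotypes and in neither PILEC library. Eng, endoglin, a receptor of the TGF-beta family found on endothelium and stroma, had 16.4 and 15.1 RPM in wt and menin-null mESCs and 1.17 and 1.53 RPM in the PILECs. Loxl1, an enzyme that crosslinks elastin and collagen, had 15.2 and 25.02 RPM in mESCs and 2.88 and 2.38 RPM in PILECs. Tagln, an actin-binding protein of smooth muscle, was unmarked in all 4 libraries, with 4.11, 2.27, 0.53 and 0.57 RPM against mESC inputs of 3.06 and 2.67 RPM, so its call as lower in both pairs is between levels near input. Tcf21, a transcription factor of visceral mesenchyme, was at 3.29, 6.26, 1.12 and 0.68 RPM. Between genotypes 1 of the 61 genes was called in mESCs, Col6a2 lower in menin-null cells with 4 tags against 12, beside 0.748% of all genes. Col6a2 was marked in neither mESC library, at 4.93 RPM in wt and 1.14 RPM in menin-null mESCs against inputs of 2.59 and 1.87 RPM. In PILECs 3 were called, all lower in menin-null cells: Lum with 6 tags against 22, Tnc with 6 against 19 and Fap with 29 against 63. None of these 3 was marked in any library. Tnc, at 1.01 RPM in wt and 0.34 in menin-null PILECs, lay below its inputs of 1.31 and 0.94 RPM, and Lum in menin-null PILECs, at 0.34 RPM, lay below its input of 0.88 RPM. The share of all genes called lower there was 1.22%.

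**Figure D5:**
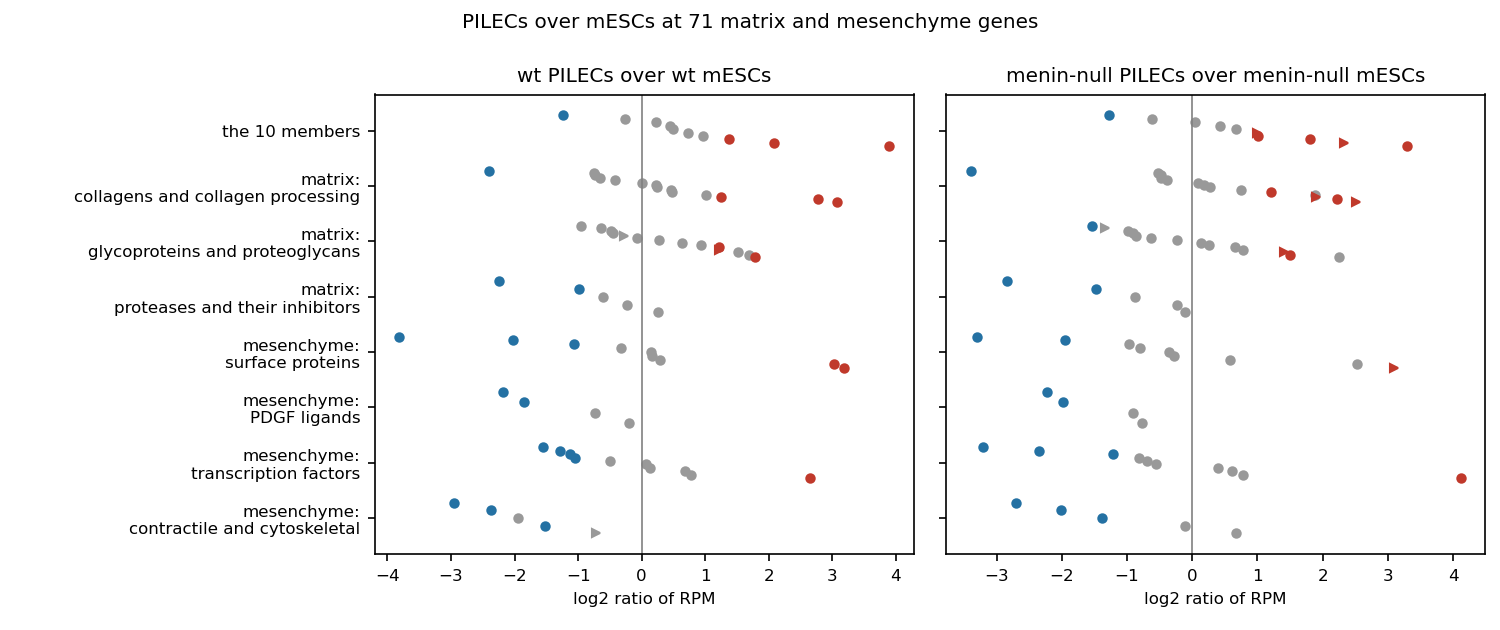
Log2 ratios of RPM of PILECs over mESCs for the 10 members and the 61 other matrix and mesenchyme genes, grouped by role, with 1 point per gene. Red marks genes called higher, blue genes called lower, grey the rest, and triangles are lower bounds against 0 tags. The contractile genes and PDGF ligands hold no gene called higher in either pair, nor do the proteases and their inhibitors.

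Genes of other cells were counted beside these, since the PILECs are a bulk culture. Of 52 listed genes 51 were found. The counts below are to be read beside 51.1% to 53.0% of all genes marked in the 4 libraries. Of all genes, 4.10% were called higher and 10.8% lower in the wt pair, and 3.30% and 15.3% in the menin-null pair. Of 8 pluripotency genes, 7 were marked in mESCs of each genotype and 2 in PILECs of each genotype, and 6 were called lower in the wt pair and 7 in the menin-null pair. The highest in PILECs was Sox2, at 26.8 RPM in wt and 30.0 in menin-null PILECs, followed by Klf4 at 25.2 and 25.5. Of 8 epithelial genes, 8 and 7 were called lower, with medians of -2.92 and -2.69, and Cdh1, E-cadherin, fell from 69.9 to 7.83 RPM in the wt and from 96.7 to 9.22 RPM in the menin-null pair. Epcam followed, at 7.30 and 6.45 RPM in PILECs.

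Of 9 islet genes, 4 were marked in PILECs of each genotype and 3 in mESCs, none was called higher, and 2 were called lower in each pair. Isl1 was the highest at 8.20 and 10.1 RPM in wt and menin-null PILECs, Neurod1 had 7.24 and 5.54 RPM, and Nkx6-1 had 6.02 and 8.48 RPM. Of 6 neural genes 5 were marked in wt and 6 in menin-null mESCs, and 6 in both PILEC libraries, beside 51.1% to 53.0% of all genes, and 2 were called higher in the wt pair and 1 in the menin-null pair. Tubb3 had 48.7 and 47.1 RPM and Map2 39.2 and 37.3 RPM in PILECs. Of 6 endothelial genes 0 were called higher in either pair and 1 was called lower in the wt pair, with Kdr at 21.0 and 18.3 RPM and Esam at 2.77 and 2.60. Of 8 extraembryonic endoderm genes 0 were called higher and 3 and 1 lower in the wt and menin-null pairs, with Lama1 at 24.0 and 25.3 RPM and Lamb1 at 24.0 and 26.4. Of 6 muscle genes none was marked in PILECs, where they lay between 0.43 and 1.36 RPM in both genotypes, the highest being Myod1 in menin-null and Myf5 in wt cells, and 2 were called lower in each pair. Between genotypes 1 pluripotency gene was called higher and 1 islet gene lower in menin-null mESCs, beside 0.500% and 0.748% of all genes. In menin-null PILECs 1 epithelial and 1 extraembryonic endoderm gene were called higher, beside 1.21% of all genes. This epithelial gene was marked in no library. It had 0.96 RPM in wt and 1.98 RPM in menin-null PILECs, against inputs of 0.89 and 0.99 RPM. In the order wt mESCs, menin-null mESCs, wt PILECs, menin-null PILECs, the genes marked were 6, 6, 3 and 3 of the 8 epithelial, 1, 1, 1 and 2 of the 6 endothelial, 7, 6, 6 and 6 of the 8 extraembryonic endoderm and 1, 1, 0 and 0 of the 6 muscle genes. The part of other cells, feeder cells included, in the levels of the 10 members was not tested.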

How the data were processed

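H3K4me3 and input chromatin of 4 cultures were analysed. Reads of 36 bp came from an Illumina GAII. The authors placed them on mm9 with an aligner not given in the sources used here, and deposited a position for every tag, with no normalization. The deposited alignment score, from 4 to 119, was checked and not used. Each tag was moved to the middle of a 250-bp fragment, and counts within 1 kb of the starts of 26212 genes (GENCODE vM1, mm9) were divided by the totals of 2432377 to 19016697 tags. Ratios were compared by counts alone, since each condition has 1 library, and the scripts were tested on simulated counts. Python 3.11.15, numpy 2.4.6, pandas 2.3.3, scipy 1.17.1 and matplotlib 3.10.9 were used.

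The members and gene lists were chosen with earlier results of these data known. Of the 61 other genes, those named are, in each comparison, the 3 called genes with the largest ratio up and the 3 with the largest down, and of other cells the 2 highest in PILECs. Alternatives changed the tags kept, their position, the window, the start, the scaling, the depth, the tags added, the fold limits and the use of input.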

Additional observations from a re-analysis of the deposited data

How the results depend on the processing

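The counts of members marked or called stayed within 1.5 times the reported count in 142 of 164 recomputations, and no log2 ratio of a called member changed sign. These recomputations include the comparisons of genotype, where the reported counts were 0 and staying at 0 passed. Only counts were compared, so a swap of members passed as well. The members marked in wt mESCs were 7 at 2-fold over input and 1 at 8-fold (55.7% and 39.0% of all genes). In menin-null mESCs they were 3 with tags within 2 kb and 3 with the 5′ end of the gene as start (48.8% and 49.5% of all genes). In wt PILECs they were 4 at 8-fold (49.5% of all genes). With both libraries scaled by their tags within 1 kb of starts, which divides by the mean enrichment itself, 0, 0, 2 and 1 were marked in wt mESCs, menin-null mESCs, wt PILECs and menin-null PILECs, against 5.28%, 6.65%, 19.3% and 18.5% of all genes. In the wt stage pair the members called lower were 0 at 3-fold and 0 after division by the input ratio within 50 kb (8.09% and 8.02% of all genes). In the menin-null stage pair they were 0 with scaling by tags at starts and 0 with counts thinned to the smallest library (10.3% and 13.4% of all genes). They were 0 at 3-fold, 0 after division by the input ratio and 2 at 1.5-fold (9.15%, 10.5% and 23.5% of all genes). The members called higher in this pair were 3 with 5 tags added (2.19% of all genes). In menin-null over wt mESCs 1 member was called lower with tags within 2 kb (1.14% of all genes). In menin-null over wt PILECs thinning, in 1 random draw, gave 1 higher and 2 lower (0.24% and 1.06% of all genes). There 1.5-fold gave 1 lower (3.46% of all genes), and subtraction of the input within 1 kb gave 1 lower (1.55%). The causes were not tested.

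Scaling by tags at starts moved the median log2 ratio of all genes from -0.33 to 0.03 in the menin-null stage pair and from 0.21 to -0.03 in menin-null over wt mESCs, and division by the input ratio moved it from -0.22 to 0.04 in the wt and from -0.33 to -0.05 in the menin-null stage pair. The alternatives with a constant RPM added in place of 1 tag and with the input subtracted were chosen after seeing the data. Leaving out a library was not possible with 1 per condition. The PILECs of each line pair with its mESCs, and the stage ratios were taken within a line. No paired test across the lines was run. In mESCs, with 2432377 and 3517028 H3K4me3 tags, a member at 3 tags or fewer cannot be told from input, so a lack of mark there is a limit of depth as well.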
